A study of Mus musculus with 7 samples.

Results

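The plasminogen activator system was followed through 5 genes, Plau, Plat, Plaur, Serpine2 and Serpinb2, picked by symbol and all found in a table of 55487 genes. Plasminogen activators are serine proteases that cut the blood zymogen plasminogen into plasmin, which dissolves fibrin and degrades extracellular matrix. Urokinase, the product of Plau, works mostly at cell surfaces, where the receptor encoded by Plaur holds it, whereas tissue-type plasminogen activator, the product of Plat, is best known for dissolving clots. Serpins such as those encoded by Serpine2 and Serpinb2 end the reaction by trapping the activators, and in tumours the balance of these proteins is studied for its part in invasion and metastasis.

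RNA came from primary tumours of BALB/c mice, labelled WT and day 12. They were grown in the mammary fat pad from a luciferase-carrying derivative of 4T1, a carcinoma line of BALB/c mammary origin. Treatment began near 150 mm3 and consisted of 6 doses of 50 µl, given every other day. The TIS sEV tumours (3 libraries) were given small extracellular vesicles from 4T1 cells made senescent by 72 h in nocodazole (100 ng/ml), which disrupts microtubules, and then released for 72 h. The Cont sEV tumour (1 library) was given vesicles of 4T1 cells kept in DMSO for the same time, and the Saline tumours (3 libraries) were given saline. The table abbreviates both vesicle groups, and its columns were assigned to them from the donor cells' treatment. The labels do not say that replicates are separate animals, so p-values refer only to these libraries. The main fit pooled the spread over genes of like level, as described below, so a p-value does not rest on that gene's own spread. The tumours are mixed tissue, in which fewer cells of a type and less RNA per cell cannot be told apart.

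Values are TPM, which correct for transcript length and sum to 1000000 in each library, and the depth behind them is unknown. All 8 epithelial marker genes checked, among them Epcam and Krt8, were at 1 TPM or more in every library. TIS sEV replicate 2 stood apart. In it 22.9% of the TPM fell on nuclear ribosomal RNA genes and 28.6% on nuclear protein-coding genes, against 0.807% to 2.40% and 56.8% to 74.7% in the other 6 libraries. In that library long transcripts were also lower relative to short ones. After division by size factors, which align the median gene of the libraries, coding genes there differed from the median of the other libraries by a median of 0.37 log2 units in the shortest of 4 classes of transcript length, and by -0.26 in the longest. The differences between groups are therefore also given without TIS sEV replicate 2 and with size factors.

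The receptor was the most abundant of the 5 transcripts in 6 of 7 libraries, and Serpinb2 was close to undetected. Promoter windows of 3 of the 5 genes, Plaur, Serpine2 and Serpinb2, were in the RefSeq table (GRCm38.p6), and all 3 are shown. That table held none for Plau or Plat. Of the genes shown, Plaur was the highest in level, Serpinb2 the lowest and Serpine2 between them. Each is the 250 bases before the RefSeq start, 5′ to 3′ on the gene's strand. Serpinb2 has 2 starts in that table, and the window of the lower coordinate is shown. The Serpine2 window lies inside the gene span printed below, which is from GENCODE and reaches further upstream. Capitals mark 4 motifs. The GC box was searched as GGGCGG on either strand. The AP-1-like motif was searched as TGANTCA, which reads alike on both strands. The CRE-like motif was searched as TGACATCA on either strand. The TATA box was searched as TATAAA on the gene's strand, where it is directional.
Plaur (chr7:24462233-24462482, plus strand): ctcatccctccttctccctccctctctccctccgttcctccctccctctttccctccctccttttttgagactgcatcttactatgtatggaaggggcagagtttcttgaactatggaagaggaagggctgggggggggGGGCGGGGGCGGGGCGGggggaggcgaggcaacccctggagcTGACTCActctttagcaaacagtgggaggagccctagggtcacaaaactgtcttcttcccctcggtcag
Serpine2 (chr1:79858666-79858915, minus strand): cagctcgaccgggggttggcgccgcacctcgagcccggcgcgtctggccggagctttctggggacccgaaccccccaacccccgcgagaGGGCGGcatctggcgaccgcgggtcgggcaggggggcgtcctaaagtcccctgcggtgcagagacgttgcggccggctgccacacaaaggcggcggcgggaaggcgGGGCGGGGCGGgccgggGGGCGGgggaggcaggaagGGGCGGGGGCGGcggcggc
Serpinb2 (chr1:107511173-107511422, plus strand): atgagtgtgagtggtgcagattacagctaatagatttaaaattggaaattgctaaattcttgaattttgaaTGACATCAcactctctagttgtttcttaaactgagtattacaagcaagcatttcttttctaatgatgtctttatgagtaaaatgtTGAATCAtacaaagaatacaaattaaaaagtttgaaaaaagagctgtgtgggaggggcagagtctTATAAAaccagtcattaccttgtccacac

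The Plaur window held 3 GC boxes, of which a pair overlapped by a base, and 1 AP-1-like match that begins 69 bases before the start. The Serpine2 window held 6 GC boxes, some of them overlapping, and 34 CpG dinucleotides, more than 96.5% of the 32851 windows in the table. The Serpinb2 window held 0 CpG, as did 7.87% of all windows, with a TATA box 29 bases, an AP-1-like match 94 bases and a CRE-like match 179 bases before the start. Of all windows, the AP-1-like letters were in 6.75%, the CRE-like letters in 2.93%, the GC box in 32.7% and the TATA box in 7.59%. These matches are letters in a window and describe no binding.

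Plau, the urokinase gene (chromosome 14, 20836660 to 20843385, GRCm38, plus strand), was measured at 53.1, 10.3 and 18.2 TPM in the TIS sEV tumours, at 87.8 TPM in the Cont sEV tumour and at 14.7, 30.1 and 54.5 TPM in the Saline tumours. The Cont sEV tumour was the highest of the 7, and the TIS sEV and Saline tumours overlapped. Means were 27.2 ± 22.7 TPM with TIS sEV and 33.1 ± 20.1 TPM with saline (SD, n = 3 each). The spread within either group was larger than the difference between the means.

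Plat (chromosome 8, 22757727 to 22782844, plus strand) was the lower of the activator genes in every library. Plat reached 13.2, 0.691 and 9.85 TPM in the TIS sEV tumours, 5.91 TPM in the Cont sEV tumour and 4.68, 7.47 and 10.97 TPM in the Saline tumours. TIS sEV replicate 2 was the lowest library and TIS sEV replicate 1 the highest, so the TIS sEV tumours enclosed all the others.

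Plaur, the gene of the urokinase receptor (chromosome 7, 24462484 to 24475968, plus strand), had 122, 10.2 and 103 TPM in the TIS sEV tumours, 118 TPM in the Cont sEV tumour and 89.5, 132 and 78.3 TPM in the Saline tumours. Apart from TIS sEV replicate 2 its libraries lay within 78.3 to 132 TPM, the narrowest relative range among the 5 genes. Means were 78.4 ± 59.8 TPM with TIS sEV and 99.8 ± 28.1 TPM with saline (SD, n = 3 each).

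Serpine2, which encodes protease nexin-1, an inhibitor of urokinase and thrombin (chromosome 1, 79794197 to 79861180, minus strand), had 12.8, 0.798 and 17.0 TPM in the TIS sEV tumours, 14.6 TPM in the Cont sEV tumour and 14.7, 17.9 and 8.49 TPM in the Saline tumours. Again 1 TIS sEV library was far below the rest, and the other 2 fell inside the range of the Saline tumours.

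Serpinb2, which encodes plasminogen activator inhibitor 2 (chromosome 1, 107511423 to 107535478, plus strand), reached 1 TPM in 1 of 7 libraries. Its values were 0.419, 0.241 and 0.255 TPM in the TIS sEV tumours, 0.258 TPM in the Cont sEV tumour and 2.03, 0.129 and 0.267 TPM in the Saline tumours. Saline replicate 1 stood above all others. The 8 neutrophil markers summed to 974 to 1775 TPM in the TIS sEV tumours, to 499 TPM in the Cont sEV tumour and to 1194 to 6093 TPM in the Saline tumours, with Saline replicate 1 again the highest. The 7 fibroblast markers were also highest there, at 111 TPM against 19.4 to 89.2 TPM in the other libraries. The remaining marker lists were highest in other libraries. No neutrophil or fibroblast marker was listed at 0, and the part of these lists in the Serpinb2 value was not tested. Serpinb2 did not meet the filter of 1 TPM in 3 libraries, so 4 of the 5 genes were tested. Without a filter its log2 difference between TIS sEV and Saline tumours was -0.32 (SE 0.38, limma adjusted p = 0.689).

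**Figure D1:**
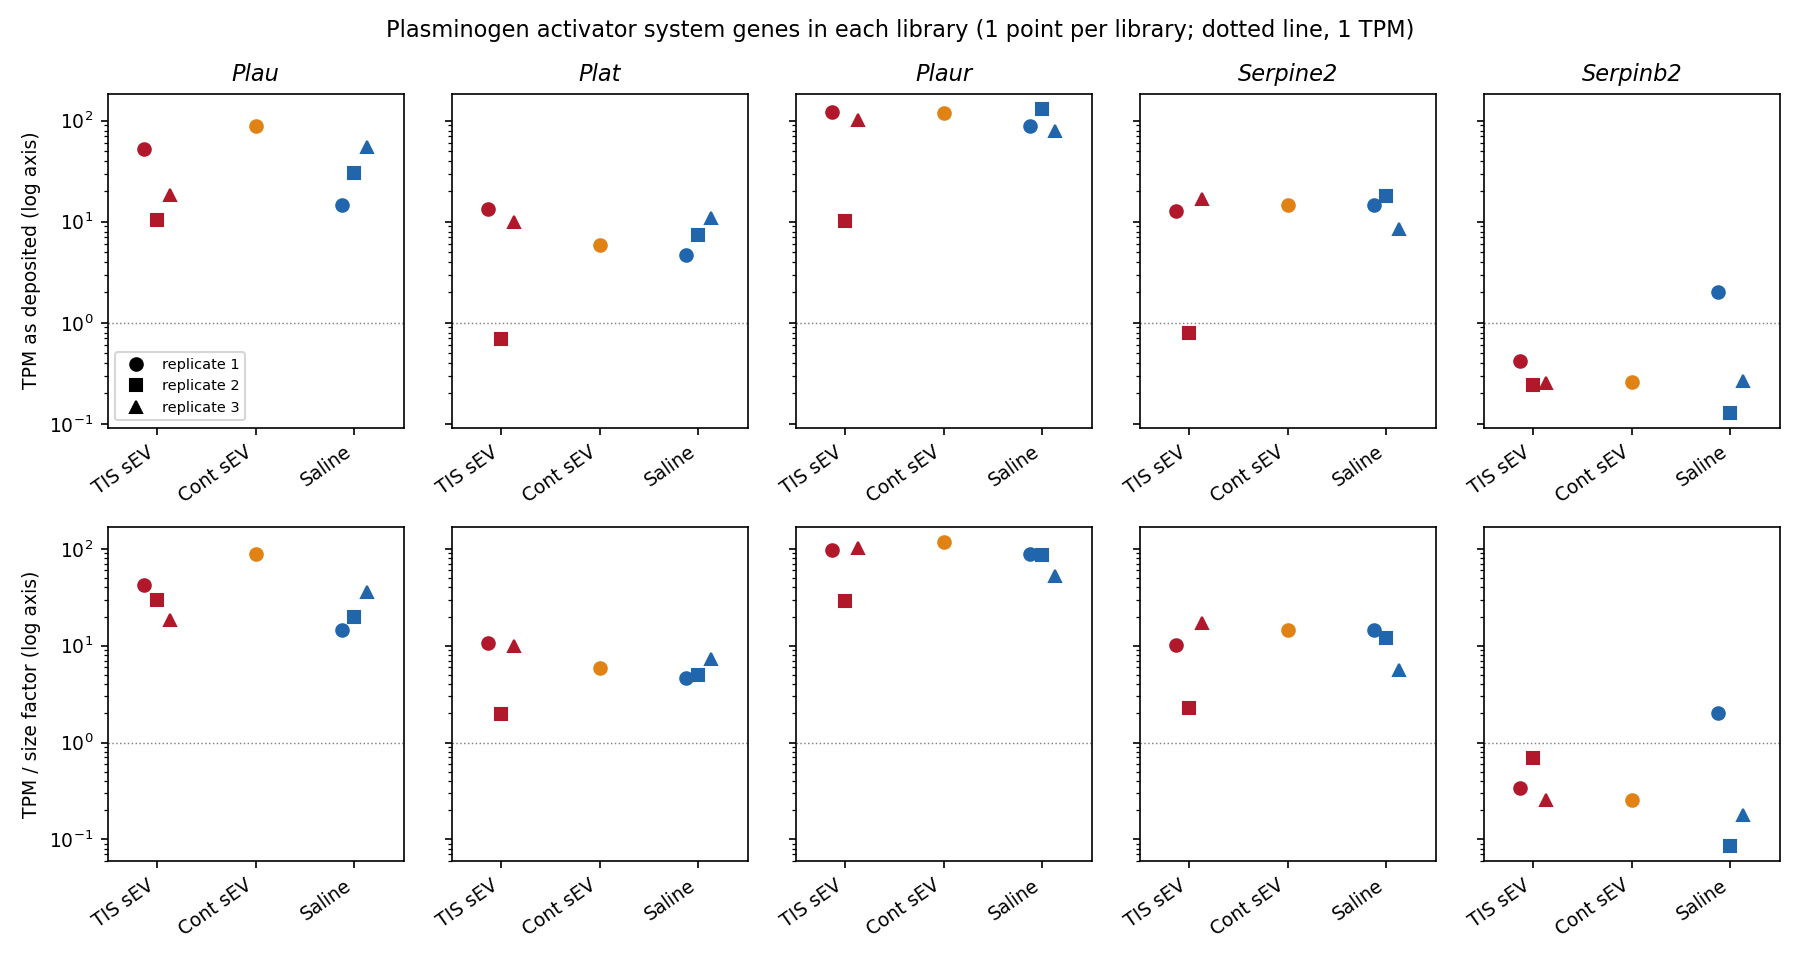
TPM as deposited (upper row) and TPM divided by size factors (lower row) of Plau, Plat, Plaur, Serpine2 and Serpinb2 on log axes, 1 point per library, with TIS sEV, Cont sEV and Saline libraries from left to right. TIS sEV replicate 2 (square) is the lowest point for Plat, Plaur and Serpine2 in both rows, at 0.691, 10.2 and 0.798 TPM as deposited.

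Within a library the order of the transcripts was steady. Plaur was above Plau in 6 of 7 libraries and above Plat, Serpine2 and Serpinb2 in 7 of 7, and Plau was above Plat and Serpine2 in 7 of 7. Serpine2 and Plat were neighbours whose order was not fixed, with Serpine2 higher in 5 of 7 libraries. Among the 12058 tested genes, Plaur lay between the 89.3rd and 94.1st percentile of its library in 6 libraries and at the 78.5th in TIS sEV replicate 2. Plau lay between the 67.0th and 91.5th percentile. Plat was at the 58.7th, 19.4th and 57.1st percentile in the TIS sEV tumours, at the 45.3rd in the Cont sEV tumour and at the 37.1st, 38.2nd and 48.8th in the Saline tumours, so 2 TIS sEV libraries were above and 1 was below every other library.

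Shares within the summed TPM of the 5 genes do not depend on how a library is scaled. Plaur made up 60.6%, 45.8% and 69.4% of the sum in the TIS sEV tumours, 52.1% in the Cont sEV tumour and 71.2%, 70.3% and 51.3% in the Saline tumours. Plau made up 26.3%, 46.4% and 12.3% in the TIS sEV tumours, 38.7% in the Cont sEV tumour and 11.7%, 16.1% and 35.7% in the Saline tumours. The groups overlapped in both shares. Together Plat, Serpine2 and Serpinb2 were the minor part of the sum in every library.

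**Figure D2:**
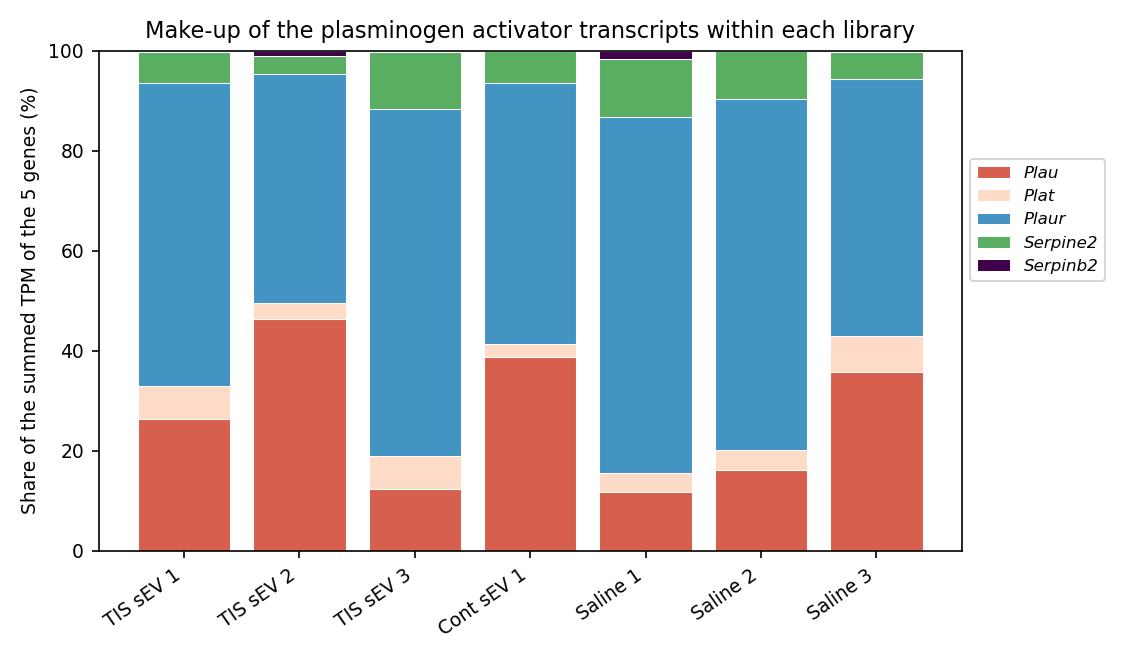
Share of each gene (%) in the summed TPM of the 5 genes, 1 stacked bar per library, with TIS sEV, Cont sEV and Saline libraries from left to right. Plaur and Plau fill most of every bar, and Plau's share runs from 11.7% in Saline replicate 1 to 46.4% in TIS sEV replicate 2.

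Ratios between a pair of genes in the same library gave the same picture. The ratio of receptor to urokinase transcripts, Plaur over Plau, was 2.30, 0.988 and 5.63 in the TIS sEV tumours, 1.35 in the Cont sEV tumour and 6.08, 4.37 and 1.44 in the Saline tumours. Plau over Plat was 4.01, 15.0 and 1.85 in the TIS sEV tumours, 14.8 in the Cont sEV tumour and 3.15, 4.03 and 4.97 in the Saline tumours. The Saline tumours kept this ratio within a narrow range that the TIS sEV tumours passed on both sides. Plau over Serpine2 was 4.16, 12.96 and 1.07 in the TIS sEV tumours, 6.03 in the Cont sEV tumour and 1.00, 1.68 and 6.42 in the Saline tumours.

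Plau was also set against Epcam, an adhesion protein of epithelial cells, a pairing chosen after the values were seen. That ratio was 0.628, 0.489 and 0.983 in the TIS sEV tumours, 0.950 in the Cont sEV tumour and 0.391, 0.386 and 0.345 in the Saline tumours, so every vesicle-treated tumour was above every Saline tumour. Epcam itself had 84.6, 21.1 and 18.6 TPM in the TIS sEV tumours, 92.4 TPM in the Cont sEV tumour and 37.7, 77.9 and 158 TPM in the Saline tumours, and like Plau it overlapped between the groups. Of the 8 epithelial markers, Plau was higher in all TIS sEV than in all Saline tumours relative to 3, namely Epcam, Cdh1 (E-cadherin) and Cldn4 (a claudin of tight junctions). Among the tested genes, 1.82%, 2.23% and 4.42% were higher without overlap relative to these 3 markers, and Plau was picked for this ratio after the fact, so the count carries no test. Relative to the other 5, keratin genes Krt8, Krt18 and Krt19 among them, the groups overlapped. The summed epithelial markers were at 532 to 2447 TPM in the TIS sEV tumours, at 2653 TPM in the Cont sEV tumour and at 1448 to 4251 TPM in the Saline tumours, with 0 markers listed at 0 in any library, and their part in these ratios was not tested. No such ratio separated the groups for Plaur or Serpine2, and 1 did for Plat, the one to Cdh1.

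**Figure D3:**
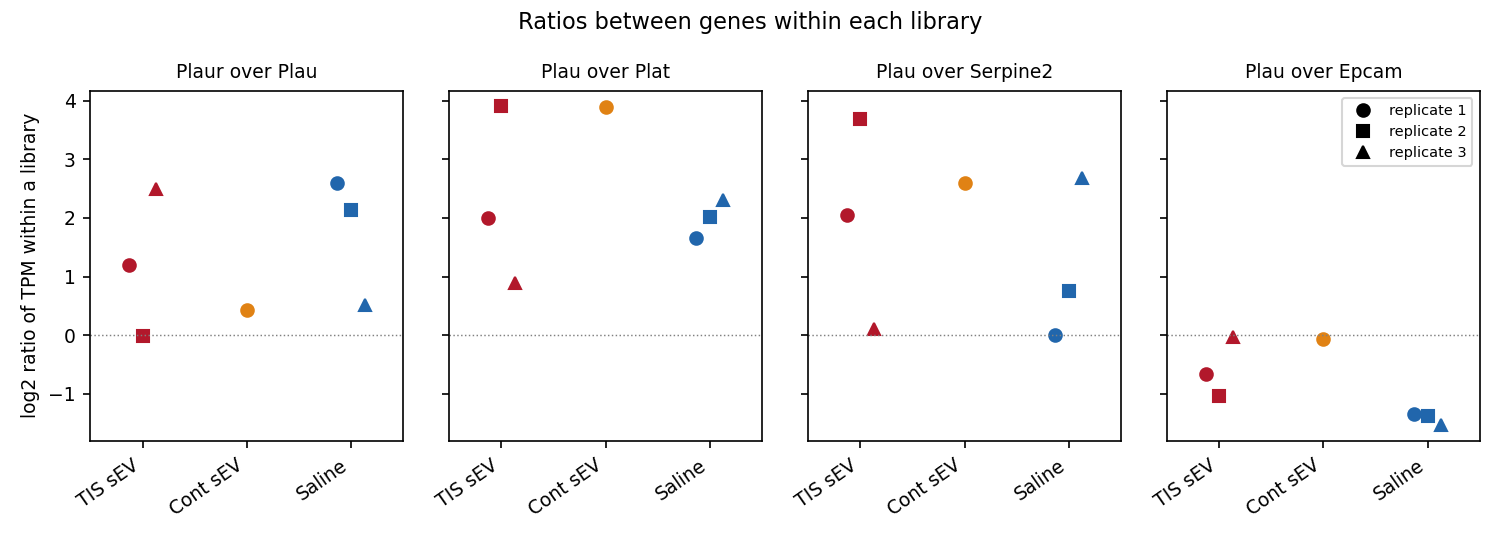
log2 ratio of the TPM of 2 genes within each library, 1 point per library, with TIS sEV, Cont sEV and Saline libraries from left to right in each panel. Groups overlap in the first 3 panels, whereas in the panel of Plau over Epcam the 3 TIS sEV points and the Cont sEV point lie above the 3 Saline points.

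Whether vesicles of senescent cells changed the system was asked by comparing TIS sEV with Saline tumours. On TPM as deposited, all 4 tested genes had lower fitted values in TIS sEV tumours, and none passed. The log2 difference was -0.40 for Plau (SE 0.65, 95% interval -1.67 to 0.87), -0.38 for Plat (SE 0.63, -1.62 to 0.86), -0.91 for Plaur (SE 0.63, -2.15 to 0.33) and -0.89 for Serpine2 (SE 0.65, -2.17 to 0.39). The limma adjusted p was 0.698, 0.708, 0.484 and 0.494 in that order. An unadjusted p under 0.05 was reached by 0 of 4, and by 10.3% of all tested genes. Over all tested genes 0.514% were called, 0.166% as lower. The median gene itself differed by -0.62, and relative to it Plau was at 0.22, Plat at 0.24, Plaur at -0.29 and Serpine2 at -0.27. The intervals allow changes of more than 2-fold downward for each gene, so these values do not show that the groups are alike.

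On TPM as deposited, the sign of all 4 differences depended on TIS sEV replicate 2. Without it they were positive, at 0.10 for Plau (SE 0.38), 0.58 for Plat (SE 0.41), 0.20 for Plaur (SE 0.36) and 0.15 for Serpine2 (SE 0.41), with limma adjusted p of 0.781 to 0.955. The Plau difference also turned positive, to 0.042, without Saline replicate 3. After size factors that library still had Plat, Plaur and Serpine2 below each of the other 6, at 1.96, 29.0 and 2.26 scaled TPM. Only 4.82%, 2.46% and 0.921% of the tested genes were as low or lower there relative to the median of the other libraries. Plau differed from these 3 in that library. Its scaled value, 29.3 TPM, lay inside the range of the others, 14.6 to 87.7 TPM, and 56.7% of tested genes were as low or lower. TIS sEV replicate 2 was also the library with the high share of ribosomal RNA and the transcript-length pattern. The longest annotated transcripts have 2009 bases for Plaur, 2342 for Plau, 3393 for Serpine2 and 4042 for Plat. Plaur, low in that library, thus has a shorter transcript than Plau. The part of ribosomal RNA and transcript length in these values was not tested.

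Size factors gave log2 differences of 0.36 for Plau (SE 0.41), 0.14 for Plat (SE 0.53), -0.15 for Plaur (SE 0.51) and -0.34 for Serpine2 (SE 0.64), with limma adjusted p of 0.650 to 0.896. With size factors and without TIS sEV replicate 2, a combination chosen after seeing the data, Plat differed by 0.79 (SE 0.22, 95% interval 0.26 to 1.31), with an unadjusted limma p of 0.0103 and an adjusted p of 0.381. It thus did not pass over all genes. In that fit 1501 of the 12058 tested genes had an unadjusted p under 0.05, and 0 were called. Endothelial cells are known as a source of tissue-type plasminogen activator. The 7 endothelial markers summed to 50.7, 13.04 and 132 TPM in the TIS sEV tumours, to 83.8 TPM in the Cont sEV tumour and to 47.2, 62.7 and 46.0 TPM in the Saline tumours, with Tek listed at 0 in TIS sEV replicate 2 and no other marker at 0. The 6 mast cell markers summed to 58.8, 6.93 and 61.7 TPM in the TIS sEV tumours, to 7.58 TPM in the Cont sEV tumour and to 5.93, 26.2 and 2.14 TPM in the Saline tumours, with none listed at 0. The 7 T cell markers summed to 38.3, 9.68 and 62.7 TPM in the TIS sEV tumours, to 20.1 TPM in the Cont sEV tumour and to 17.8, 25.7 and 34.2 TPM in the Saline tumours, with Cd3e listed at 0 in TIS sEV replicate 2. TIS sEV replicates 1 and 3 were the highest libraries in mast cell and T cell markers, and in Plat after size factors, whereas on TPM as deposited Saline replicate 3 was above TIS sEV replicate 3 in Plat. No other marker list had TIS sEV replicates 1 and 3 as its highest libraries. The mast cell and T cell lists were set beside Plat after their values were seen. The part of these marker lists was not tested. Among all 5 genes, 0 had groups that did not overlap, on TPM or on scaled TPM, where 14.3% and 23.7% of tested genes did so.

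**Figure D4:**
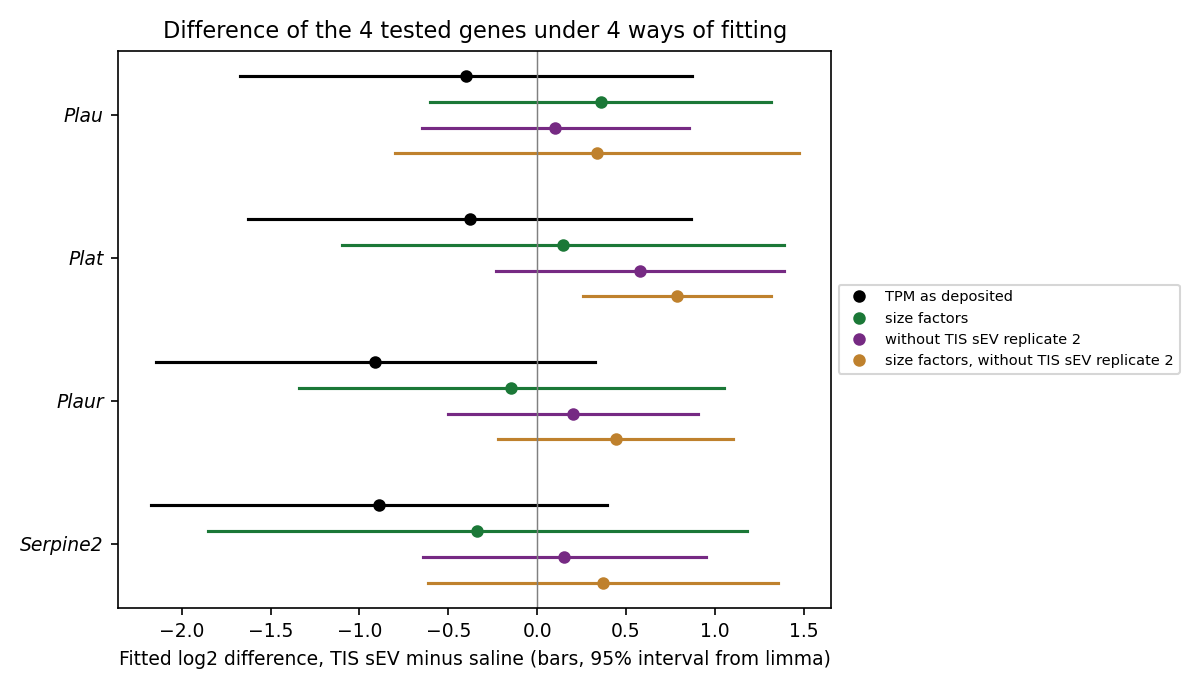
Fitted log2 difference, TIS sEV minus Saline, of the 4 tested genes (points) with 95% intervals from limma (bars), from TPM as deposited, with size factors, without TIS sEV replicate 2, and with both. All 4 points on TPM as deposited are negative, from -0.91 to -0.38, and all 4 are positive once TIS sEV replicate 2 is left out.

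The Cont sEV tumour is a single library, assumed in the fit to vary like the others. Plau was the gene in which it stood out. Cont sEV minus Saline gave 1.56 on the log2 scale (SE 0.92). TIS sEV minus Cont sEV gave -1.96 (SE 0.92), and neither difference was called. With size factors the differences were 1.95 (SE 0.57, adjusted p = 0.359) and -1.59 (SE 0.57, adjusted p = 0.903). Over all tested genes 0.207% were called in Cont sEV against Saline and 0.224% in TIS sEV against Cont sEV. The other 3 genes differed by -0.27 to 0.28 between Cont sEV and Saline tumours and by -1.19 to -0.11 between TIS sEV and Cont sEV tumours. For Plau, leaving out TIS sEV replicate 2 kept the difference between Cont sEV and Saline tumours at 1.56. That library is in neither group, and only the SE changed, to 0.48. Both comparisons share the Cont sEV library, and TIS sEV and Cont sEV are each set against the same Saline libraries.

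Around these genes, 76 further genes of plasmin formation and control were listed by role, of which 43 were tested. Plasminogen itself (Plg), which the liver supplies to the blood, was listed at 0 in 6 of 7 libraries and at 0.0179 TPM in Saline replicate 2. The plasmin inhibitors were close to absent as transcripts, with A2m (alpha-2-macroglobulin) at 0.0120 to 0.394 TPM and Serpinf2 (alpha-2-antiplasmin) listed at 0 in 3 libraries, and none of the 4 genes of that list was tested.

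Among the other listed serpins that can act on plasminogen activators, none passed the filter. Serpini1, which encodes neuroserpin, an inhibitor of tissue-type plasminogen activator, stayed at 0.0294 to 0.0898 TPM. Serpine3 was listed at 0 in the Cont sEV and Saline tumours and at most 0.0198 TPM in the TIS sEV tumours.

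Of the cell-surface plasminogen receptors, S100a10 and its partner Anxa2, which together bind plasminogen at the membrane, averaged 870 ± 418 and 816 ± 383 TPM in the TIS sEV tumours, against 1375 ± 476 and 1020 ± 272 TPM in the Saline tumours (SD, n = 3 each). After division by size factors both means were higher in the TIS sEV tumours. S100a10 was at 1118 ± 412 against 1003 ± 160 scaled TPM, and Anxa2 at 1006 ± 215 against 768 ± 153 scaled TPM. None of the 4 receptor genes passed. The list median relative to the median gene was -0.11, and 0.049 with size factors. Among 12 tested partners and clearance receptors of the urokinase receptor, 0 passed with limma. An unadjusted p under 0.05 was reached by 5 of them, and by 10.3% of all tested genes. With size factors it was reached by 1 of 12, and by 1780 of the 12058 tested genes. These partners and clearance receptors had a median of -0.37 relative to the median gene, and -0.43 with size factors. Lrp1, the endocytic receptor that clears urokinase bound to its inhibitors, averaged 90.1 ± 74.7 TPM in the TIS sEV tumours and 211 ± 60.2 TPM in the Saline tumours (SD, n = 3 each), which is -2.01 on the log2 scale (SE 0.62, adjusted p = 0.163 by limma) and of -0.65 without TIS sEV replicate 2. Itgb1, the integrin beta 1 chain, differed by -1.66 (SE 0.63, adjusted p = 0.394); leaving out that library gave -0.58.

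Among proteases that can activate pro-urokinase, Ctsl and Ctsb, lysosomal cathepsins, differed by -1.44 (SE 0.56, limma adjusted p = 0.415) and -1.003 (SE 0.61, adjusted p = 0.476). All 3 tested genes of that list lay below the median gene, with a list median of -0.68 that was -0.15 without TIS sEV replicate 2. Of the 7 tested substrates, 1 passed. Fn1, which encodes the matrix protein fibronectin, fell by 2.13 on the log2 scale (SE 0.58, adjusted p = 0.0467), the one call among the 43 genes, and that call was lost without TIS sEV replicate 2 (log2 difference of -0.71, adjusted p = 0.513) and with size factors (-1.34, adjusted p = 0.388). Mmp3, which encodes stromelysin, a metalloproteinase that plasmin can activate, had a log2 difference of -0.51 (SE 0.63, adjusted p = 0.622), or 0.91 when TIS sEV replicate 2 was left out (SE 0.35, adjusted p = 0.348).

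Coagulation and anticoagulant surface genes (6 tested), other clade B serpins (5 tested) and genes with Ly6 and urokinase receptor domains (6 tested) gave 0 calls with limma, and 0, 0 and 2 of them had an unadjusted p under 0.05, against the 10.3% of all tested genes. Relative to the median gene these lists had medians of 0.21, 0.27 and 0.094. Procr, the endothelial protein C receptor, and F2r, a thrombin receptor, differed by -0.64 and -0.82. Serpinb6a, an intracellular serpin, and Serpinb5, the serpin maspin of epithelial cells, differed by -0.43 and -0.35. The differences of single genes given here are not relative to the median gene, which was at -0.62. All 5 tested clade B serpins lay above that gene. Ly6a, which encodes the surface protein Sca-1, averaged 255 ± 268 TPM in the TIS sEV tumours and 167 ± 80.3 TPM in the Saline tumours (SD, n = 3 each). Its log2 difference was -0.12 (SE 0.61, adjusted p = 0.907), or 1.04 when TIS sEV replicate 2 was left out (SE 0.34, adjusted p = 0.157). Ly6e differed by -0.24 (SE 0.63). Between the Cont sEV and Saline tumours the Ly6 list had a median of 1.498 relative to the median gene, with 5 of 6 genes above it and 0 called (1 at an unadjusted p under 0.05, as were 2.33% of all tested genes). When TIS sEV replicate 2 was left out of that fit, Ly6c1 (2.00), Mmp9, which encodes gelatinase B (2.35), and Fn1 (-2.12) were called between the Cont sEV and Saline tumours, with limma adjusted p of 0.00241, 0.000213 and 5.32e-05, where 1.63% of all tested genes were called. These calls rest on the single Cont sEV library. With size factors and all 7 libraries the adjusted p was 0.359, 0.318 and 0.505, and with size factors and without TIS sEV replicate 2 neither list had a call. The 3 genes were named after their values were seen.

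**Figure D5:**
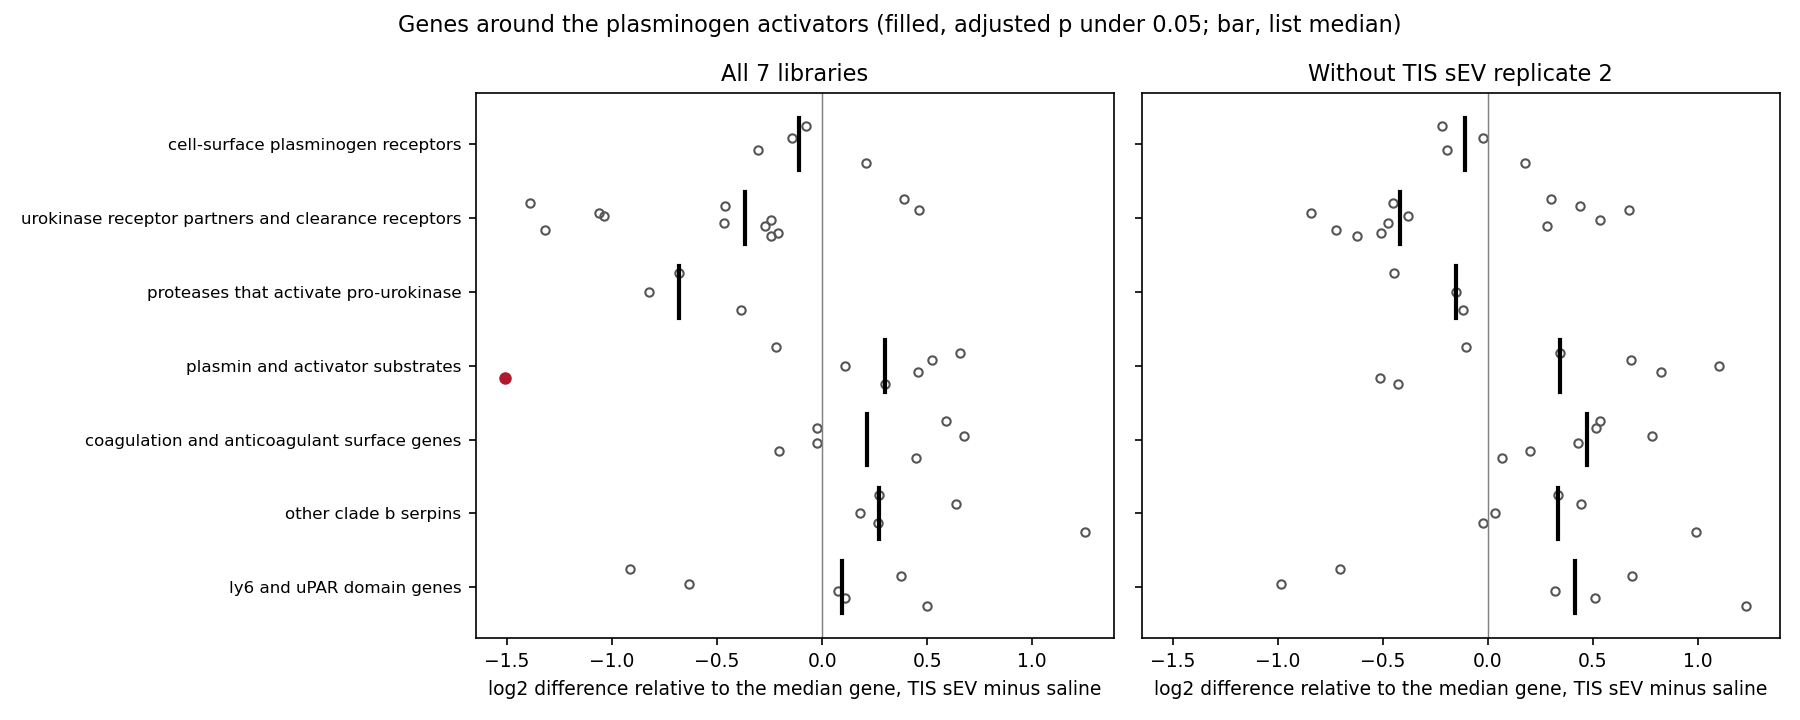
log2 difference relative to the median gene, TIS sEV minus Saline, of the tested genes in 7 lists (open points; filled, limma adjusted p under 0.05; bar, list median), with all 7 libraries (left) and without TIS sEV replicate 2 (right). The filled point on the left is Fn1, and no point is filled on the right.

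Each gene's pattern over the 7 libraries was compared with that of 7119 protein-coding genes averaging at least 5 TPM, by the root-mean-square difference of centred log2 values after size factors. Nearest to Plau were Tmem40 (0.19 log2 units), Mcpt8, a protease of basophils (0.25), and Ly6c2 (0.29), where the median gene was 0.84 away. Tmem40 had 21.1, 5.16 and 7.73 TPM in the TIS sEV tumours, 31.6 TPM in the Cont sEV tumour and 6.37, 9.60 and 24.9 TPM in the Saline tumours, the same ranking of the Cont sEV tumour first. Nearest to Plat were Ch25h, cholesterol 25-hydroxylase (0.17), Ogfod3 (0.19) and Tpst1, a tyrosine sulfotransferase (0.22). Nearest to Plaur were Ubr2, a ubiquitin ligase (0.13), Steap1 (0.21) and the syndecan gene Sdc4 (0.22). Serpine2 had Ubr2 (0.22), Thbs3 (0.23) and Plaur itself (0.25) nearest, so the receptor and the inhibitor were close to each other in pattern, and both were lowest in TIS sEV replicate 2. Nearest to Serpinb2 were Cald1, Il1r2 and Nr1d2 (0.27 to 0.29 log2 units), where Serpinb2 itself varied by 0.47 about its mean.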

How the data were processed

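RNA-seq was made from total RNA of 7 tumours. The authors deposited 1 table of TPM values, 55487 genes by 7 libraries. Tools named, per the submitters' processing notes, are Salmon 1.4.0, DESeq2 1.28.0, Trim Galore 0.6.6 and FastQC 0.11.9, with build GRCm38.p6. The transcript annotation is not given in the sources used here. Saline columns match the labels. Columns named CE and NcE were read as Cont sEV and TIS sEV, from the nocodazole in the protocol, and each comparison with vesicles rests on this reading.

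Symbols (55141 identifiers) and positions came from GENCODE M21, promoter windows from RefSeq. limma 3.58.1 (R 4.3.3) was run on log2(TPM + 1) over the 12058 genes that reached 1 TPM in 3 or more libraries, with 1 mean for each of the 3 groups, an intensity trend and two-sided tests, Benjamini-Hochberg adjusted at 0.05. Differences on this scale understate changes of low genes. In this main fit, and with any library left out, limma took each gene's spread wholly from the intensity trend. The SEs, intervals and p-values of those fits therefore do not measure the gene's own spread between libraries. With size factors, and with no filter, the gene's own spread counted in part. The limma step was tested on simulated data, whose noise followed the intensity trend alone, with no library set apart. That run could not show whether calls hold in these data. Size factors are medians of ratios over genes above 0 in every library. Since TPM has a fixed sum, much ribosomal RNA in a library lowers its other values.

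The genes, lists and tests were chosen with earlier results of these data known. Results of 1 other gene are not reported here. Named were the 5 genes, 2 genes of highest mean TPM per list, list genes that passed, and the 3 nearest in pattern per gene. Genes named outside this rule (Plg, Epcam and other markers) were chosen after their values were seen. Alternatives were other scalings, a pseudocount of 0.1, other filters, each TIS sEV and Saline library left out in turn, and a replicate block. The Cont sEV library, the only one of its group, was never left out.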

Additional observations from a re-analysis of the deposited data

How the results depend on the processing

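No setting called Plau, Plat, Plaur or Serpine2 in any comparison in which it was tested, so the calls did not change, while directions did. Between TIS sEV and Saline tumours, Plau turned to 0.36 with size factors (also with the replicate block added), 0.044 with TPM over nuclear coding genes and 0.34 with size factors and without the library rich in ribosomal RNA (TIS sEV replicate 2), a combination added after seeing the data. Plat turned to 0.14 with size factors (also with the replicate block) and to 0.79, Plaur to 0.44 and Serpine2 to 0.37 with that combination. Leaving out 1 library gave -1.03 to 0.10 for Plau, -0.96 to 0.58 for Plat, -1.53 to 0.20 for Plaur, -1.51 to 0.15 for Serpine2 and -0.59 to 0.12 for Serpinb2. The positive ends came without TIS sEV replicate 2 for the first 4, and Plau was also at 0.042 without Saline replicate 3. In TIS sEV against Cont sEV, Plat turned to 0.063 with size factors, 0.24 with TPM over coding genes, 0.19 with the replicate block, 0.30 with block and size factors and 0.71 with the combination, and leaving out 1 library gave -0.69 to 0.85 for Plat and -1.65 to 0.016 for Serpine2. In Cont sEV against Saline, Plat turned to 0.082 with size factors and with the combination, Plaur to -0.28 and Serpine2 to -0.36 with the replicate block, and leaving out 1 library gave -0.15 to 0.35 for Serpine2. The cause of these turns was not tested.

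Counts of called genes, the background of these results, moved widely. For TIS sEV against Saline, 62 genes became 0 with size factors, TPM over coding genes, no filter, block with size factors and the combination, 9 with at least 1 TPM in all 7 libraries, 14 with the replicate block and 7 (without Saline replicate 3) to 353 (without TIS sEV replicate 1) on leaving out 1 library. For TIS sEV against Cont sEV, 27 became 1 with size factors and with the combination, 2 with TPM over coding genes, 246 with no filter, 0 with the strict filter, 5 with the replicate block, 0 with block and size factors and 10 (without Saline replicate 3) to 103 (without TIS sEV replicate 2). For Cont sEV against Saline, 25 became 1, 2, 233, 0, 9 and 0 under these settings, 1 with the combination and 11 (without Saline replicate 2) to 197 (without TIS sEV replicate 2). At an unadjusted p under 0.05, size factors gave 1780, 586 and 1539 genes in the 3 comparisons. Same-numbered TIS sEV and Saline libraries did not deviate together in every pair (r across genes of -0.34, -0.012 and 0.070), so numbers were not taken to pair samples. Among the 43 list genes, Fn1 was called in 5 settings, the reported one included, and without TIS sEV replicate 1 there were 6 calls, Ctsl, Fn1, Igf2r, Itgb1, Lrp1 and Ly6d. Depth is unknown, so the floor for Serpinb2 cannot be given.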
